A study of Mus musculus with 30 samples.

Results

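Bone was compared with skeletal muscle in 4 of the 30 arrays of a survey of 15 organs, 2 arrays labelled bone and 2 labelled muscle, which were taken by their sample labels. All came from male C57BL/6 mice without treatment, aged 28 weeks by the sample labels. The study's methods give another age. RNA of the organ was labelled with Cy3 and hybridised to an Agilent oligonucleotide array against a Cy5 reference that combined Universal Mouse Reference RNA, made from cell lines, with RNA of embryonic stem cells. The labels do not name the bone, the muscle or the treatment of the marrow, and for bone the series description names 1 replication although 2 arrays are labelled. A value is log2(Cy3/Cy5), the organ over the reference, so that 0 means equal signal in both and a difference of 1 stands for a ratio of 2.

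Bone is a mixed organ. Osteoblasts make its collagen-rich matrix and osteoclasts dissolve it, cartilage covers the joint ends, and the marrow cavity holds the dividing precursors of red cells, granulocytes, platelets and lymphocytes. Skeletal muscle is made of fused, non-dividing fibres packed with sarcomeres, supplied by motor nerves whose axons are wrapped by Schwann cells, and it attaches to bone through tendon. In such bulk samples fewer cells of a type and less RNA per cell cannot be told apart.

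The spots that carry the leading results are oligonucleotides of 60 bases, and the first 30 bases of 7 of them are shown from the 5′ end as deposited, because they are what was measured. The first 4 belong to genes that were higher in bone and the other 3 to genes that were higher in muscle.
Tent5c: ggaagtggtttatggtatatgctgtgcttt
Wfdc21: gagctctgtgaccaagaaaacagttgaaaa
Tspo2: atacttgatgtggccgctctcctgcatctt
Hcls1: cctagaggggaggctctcacagggctgcct
Mstn: tcacaaaaaaggtgactgcttctatttcag
Mettl21c: gtgtcttgtgaagatattcgaaggtgcacc
Jph1: ttgtcctggtcatgctgttgaatattgggt

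Of 21019 probes tested, 2372 were higher in bone (11.3%) and 1724 were higher in muscle (8.2%), where a call needed an adjusted p below 0.05 and a difference of 1 or more in log2 (limma, all 30 arrays, spread pooled over 15 residual degrees of freedom). With 2 arrays against 2, an exact permutation test cannot go below p = 0.333, so single genes rest on that pooled spread. Of these calls 57.9% were higher in bone, and the split depended on the scaling. With each array centred on its median in place of loess, 1570 probes were higher in bone and 2570 in muscle, so that 37.9% of the calls were higher in bone. The difference had a median of 0.01 over all probes. The large differences lay on the side of bone: 907 probes were higher there by a log2 difference of 2 or more, against 204 in muscle, and 125 by 4 or more, against 0 in muscle. Only 5049 of the probes (24%) carry a symbol, 470 of them higher in bone (9.31%) and 397 higher in muscle (7.86%), and the others are counted without a name.

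The arrays of one organ did not resemble each other equally well. Across the probes the muscle arrays correlated at r = 0.984 and the bone arrays at r = 0.849, while a bone and a muscle array correlated at 0.7 to 0.728. The bone arrays lay more than 1 log2 unit apart at 2372 probes, the muscle arrays at 192. The pooled spread can be smaller than that of bone. The bone SD was 0.94 for Jph1 and 0.68 for Cks2, with SEs of the difference of 0.33 and 0.32. Among the other 13 organs the replicate r ran from 0.671 to 0.991 and was below that of bone in 2. Bone and muscle arrays shared no slide and no scan day, so that no difference could be computed within one and these cannot be told apart from the organ in the 4 arrays. Between 59.8% and 67.5% of the probes of the authors' table were well above background on these 4 arrays.

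The largest difference among probes with a symbol was that of Tent5c (4930431B09Rik on the array), a poly(A) polymerase. It read 3.22 and 2.67 in bone and -3.75 and -4.38 in muscle, a log2 difference of 7.01 ± 0.33 (SE, n = 2 arrays each, limma adjusted p = 9.605e-11), or 129-fold. Bone was the highest of the 15 organs for this gene and muscle the lowest. Wfdc21 (1100001G20Rik), a small secreted protein with a whey acidic protein domain, read 5.72 and 5.1 in bone and 0.29 and 0.2 in muscle. The log2 difference was 5.17 ± 0.33 (adjusted p = 2.367e-09, limma). Muscle was not well above background on either array, so that its level there is known only as a bound. Liver (7.33) and skin (6.17) exceeded bone (5.41).

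The other genes among the 12 with the largest differences in bone were of a few kinds. Tspo2 (Bzrpl1), a membrane protein of developing red cells, and Rgs18, a regulator of G protein signalling in platelets, belong to blood lineages. F5, coagulation factor V, was listed with the platelet genes but was higher in liver (5.8) than in bone (3.78). Cks2, Aspm, Birc5, Fignl1 and Ncapg, which act in cell division or DNA repair, made up 5 more, with log2 differences from 4.40 to 5.35. The remaining pair, 1300017J02Rik (4.85) and Fam107b (3110001A13Rik, 4.07), are named here with no role. For these 12 genes both bone arrays lay above both muscle arrays, which was part of the rule that named them. Over all probes, called or not, that order held for 32.2% and the reverse order for 33.7%.

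**Figure D1:**
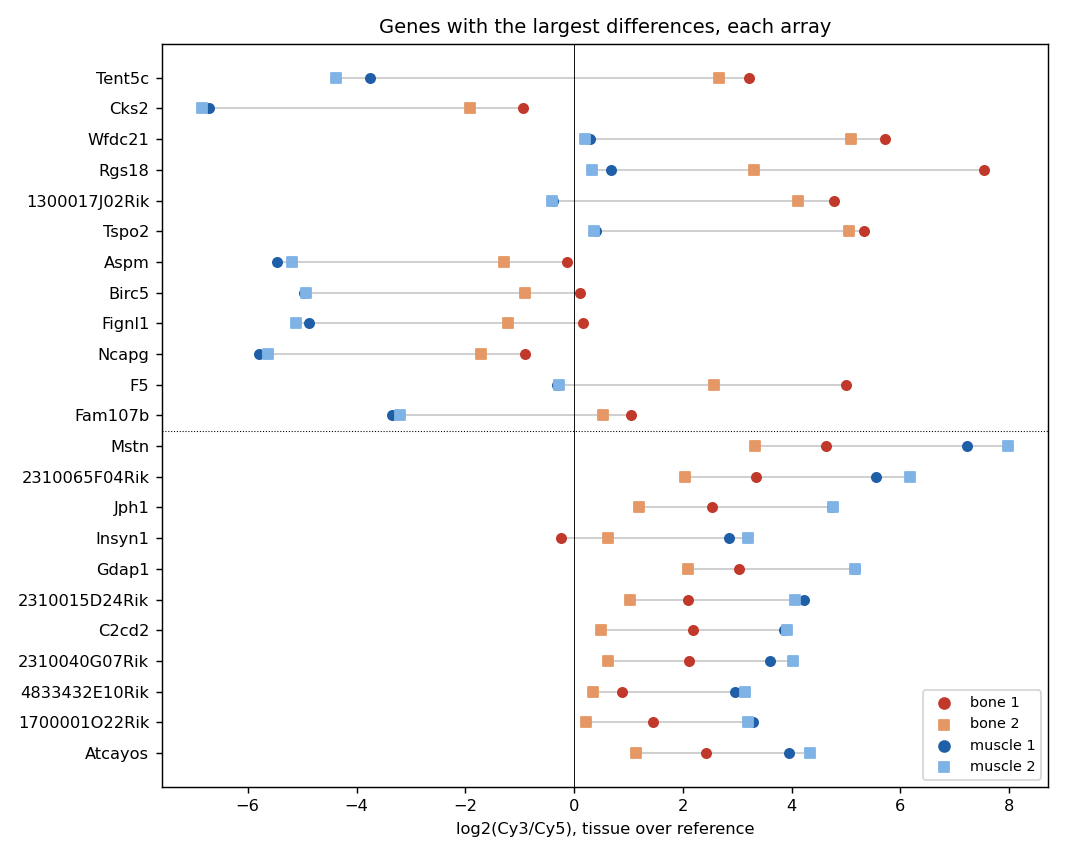
Each row is a gene and each point an array, plotted as log2(Cy3/Cy5), for 12 genes that were higher in bone and 11 that were higher in muscle, among those that differed most. The upper 12 genes reach higher in bone, with Rgs18 and F5 far apart between the bone arrays (7.54 and 3.32, 5.0 and 2.57), and the lower 11 genes, from Mstn on, reach higher in muscle while staying above 0 on all but 1 bone array.

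Genes of cell division held the largest number of called members among the 20 lists. Of 51 members, 45 were higher in bone (11.3% of all probes were) and 0 in muscle, with a median log2 difference of 2.00 beside 0.01 over all probes. Cks2, a subunit of cyclin-dependent kinase complexes, read -0.94 and -1.91 in bone and -6.71 and -6.84 in muscle, a difference of 5.35 ± 0.32 (adjusted p = 1.338e-09, limma). Birc5, the chromosomal passenger protein survivin, read 0.10 and -0.91 in bone and -4.97 and -4.92 in muscle, a difference of 4.54 ± 0.29 (adjusted p = 2.054e-09, limma). Both genes were far apart between the organs, with no overlap, which was part of the rule that named them. The median ratio of the list was -0.64 and -1.29 in bone and -3.08 and -3.01 in muscle, below 0 and so below the reference made from cultured cells.

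Members of replication, spindle assembly and mitotic control were among them. The replication helicase subunits Mcm3, Mcm6 and Mcm7 differed by 2.56, 3.18 and 2.35, and the flap endonuclease Fen1 by 2.73. The mitotic kinases Aurkb, Nek2 and Plk1 differed by 3.33, 2.84 and 1.85, and the kinesins Kif14, Kif15 and Kif23 by 3.42, 3.27 and 3.86. Kif23 and Kif15 were not well above background on either muscle array, with bounds on the Cy3 level of at least 12.8-fold and at least 7.05-fold. Bone was the highest of the 15 organs for 43 of the 51 members. The 6 members that were not called ran from 0.09 (Ube2t) to 0.99 (Brip1). In 46 of the 51, bone 1 was above bone 2, with a median gap of 0.82, and 39 of the 45 calls remained without bone 1.

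Promoter windows of the division genes are shown because these genes moved together. RefSeq windows (GRCm38.p6) of the 250 bases before the transcript start were found for 40 of the 51 members. The CCAAT box (CCAAT or ATTGG) occurred in 29 of the 40 (72.5%), against 34.5% of all genes in the table. In the other lists it ran from 0%, as in the fibrillar matrix list, to 100% in the Schwann cell list (1 of 1). It was 50% for lymphocytes (8 of 16), 60% for endothelium (3 of 5) and 66.7% for keratinocytes (2 of 3). The cell cycle homology element (TTTGAA or, in another form, TTCGAA) occurred in 13 of the 40 (32.5%), against 17.4%, and in 5 of 16 lymphocyte genes (31.2%). Both strands were searched, and matches of different motifs were counted even where they overlapped. A match is not a binding site, and the motifs were chosen with the results known. Capitals mark both motifs in 3 members that hold each of them, Ncapg, the ubiquitin-conjugating enzyme Ube2c and the spindle checkpoint kinase Bub1b.
Ncapg, chr5:45669675-45669924 (+ strand): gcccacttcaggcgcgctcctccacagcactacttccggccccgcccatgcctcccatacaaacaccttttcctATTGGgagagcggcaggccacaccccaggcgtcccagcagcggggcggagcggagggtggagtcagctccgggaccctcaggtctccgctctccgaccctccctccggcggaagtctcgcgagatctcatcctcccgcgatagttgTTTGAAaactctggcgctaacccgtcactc
Ube2c, chr2:164769679-164769928 (+ strand): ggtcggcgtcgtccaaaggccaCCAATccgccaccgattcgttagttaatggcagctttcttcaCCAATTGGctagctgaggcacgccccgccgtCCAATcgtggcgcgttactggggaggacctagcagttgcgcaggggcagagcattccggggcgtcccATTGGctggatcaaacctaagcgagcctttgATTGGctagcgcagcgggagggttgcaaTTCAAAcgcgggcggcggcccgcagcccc
Bub1b, chr2:118597961-118598210 (+ strand): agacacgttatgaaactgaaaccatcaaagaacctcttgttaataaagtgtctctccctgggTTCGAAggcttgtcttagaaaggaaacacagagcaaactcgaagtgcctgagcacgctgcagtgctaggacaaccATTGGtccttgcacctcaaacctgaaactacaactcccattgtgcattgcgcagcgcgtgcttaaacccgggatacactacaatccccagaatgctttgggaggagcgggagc

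Genes of the red cell line and of heme synthesis were the next group. Of 11 members, 6 were higher in bone (11.3% of all probes were) and 0 in muscle, with a median difference of 1.39. The median was 0.77 without bone 1, 2.02 without bone 2 and 0.75 under median centring. Tspo2 read 5.33 and 5.05 in bone and 0.39 and 0.37 in muscle, a log2 difference of 4.81 ± 0.20 (adjusted p = 1.631e-11, limma). Its arrays agreed closely in each organ, and after bone (5.19) the next organ, small intestine, stood at 1.91. The mitochondrial iron importer Slc25a37 read 3.22 and 2.08 in bone and 0.05 and -0.12 in muscle, a difference of 2.68 ± 0.32. The erythroid kinase Dyrk3 (1.94), the mitochondrial transporter Abcb10 (1.87) and the glycine carrier Slc25a38 (1.39) were higher as well. Bone was the highest organ for all 6 called members. Slc25a38 was no longer called without bone 1 (0.77) or under median centring (0.75). Not every heme enzyme followed. Urod read 1.12 and 0.82 in bone and 1.28 and 1.38 in muscle, and Bpgm, the red cell enzyme of 2,3-bisphosphoglycerate, read 2.87 and 2.67 against 2.29 and 2.42. All 11 members were higher on bone 1 than on bone 2, by a median of 1.05.

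Genes of platelets and their precursors, the megakaryocytes, were called higher in bone in 4 of 4 cases, beside 11.3% of all probes, but the bone arrays disagreed about them. The median difference of 2.92 was 1.5 without bone 1 and 4.31 without bone 2. Rgs18 read 7.54 on bone 1 and 3.32 on bone 2, against 0.68 and 0.33 in muscle, a log2 difference of 4.92 ± 0.77. In muscle Rgs18 was not well above background on either array, so that its level there is known only as a bound. F5 read 5.0 and 2.57 in bone and -0.32 and -0.27 in muscle, and was higher in liver (5.8) than in bone (mean 3.78). Both arrays of bone were thus well above muscle for these genes. Gp1bb, a chain of the platelet receptor for von Willebrand factor, read 3.68 on bone 1 and 0.55 on bone 2, against 0.41 and 0.30. Selp, the adhesion receptor P-selectin, read 2.77 and 0.04 against 0.25 and -0.02. For Gp1bb and Selp bone 2 was at the level of muscle, and without bone 1 the differences were 0.20 and -0.07 in place of 1.76 and 1.29, with adjusted p = 0.651 and 0.87 (limma). Both calls were also lost without muscle 1 (1.81 and 1.43) or muscle 2 (1.71 and 1.16).

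Genes of neutrophils and macrophages were higher in bone in 13 of the 20 members tested and in muscle in 0, where 11.3% and 8.2% of all probes were. The median difference of 1.26 was 0.94 under median centring, 2.26 with the processed signals and 2.88 with the Cy3 level alone. Il8ra was below the filter. Hcls1, an actin regulator of blood cells, read 2.56 and 2.58 in bone and -1.05 and -1.35 in muscle, a difference of 3.77 ± 0.25 (adjusted p = 3.466e-09, limma). Ncf4, a subunit of the phagocyte oxidase, read 0.89 and 0.69 in bone and -2.63 and -2.67 in muscle, a difference of 3.44 ± 0.23. The bone arrays agreed for both, and bone was the highest organ for both, ahead of lung. The pore-forming protein Mpeg1 (3.05), the lipid phosphatase Inpp5d (2.97), the Fc receptors Fcgr3 (2.48) and Fcgr2b (2.09), their signalling chain Fcer1g (2.00) and the chemokine receptor Cxcr2 (Il8rb, 1.33) were higher too, Cxcr2 not without bone 1 (0.91) or muscle 1 (0.80), nor under median centring (0.79). Chil1 (Chi3l1), a secreted chitinase-like protein, was not well above background on either muscle array and differed by 2.05. The scavenger receptor Marco read 0.02 and 0.30 in bone and 0.08 and -0.03 in muscle. Only 13 of the 20 members were higher on bone 1 than on bone 2, by a median of 0.18, a smaller gap than in the platelet and red cell lists.

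Among 16 members of this list with a RefSeq promoter window, 9 held GAGGAA or its complement TTCCTC (56.2%), the core bound by ETS factors such as PU.1, against 23.1% of all genes. Among the other blood lists it was 50% for lymphocytes, 44.4% for red cells and 0% for platelets (0 of 3). Outside blood the share ran from 0% in the fat, fatty acid oxidation and muscle regulator lists (0 of 4 in the last) and 20% in the cell division list to 57.1% in the osteoblast list (4 of 7) and 80% in the endothelial list (4 of 5). The windows of Inpp5d and Fcgr3, both higher in bone, are printed with the motif in capitals.
Inpp5d, chr1:87620062-87620311 (+ strand): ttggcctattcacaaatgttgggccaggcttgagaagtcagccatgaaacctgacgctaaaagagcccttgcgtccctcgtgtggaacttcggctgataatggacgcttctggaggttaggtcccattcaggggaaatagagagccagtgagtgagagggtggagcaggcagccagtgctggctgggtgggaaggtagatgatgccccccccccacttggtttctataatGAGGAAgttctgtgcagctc
Fcgr3, chr1:171059404-171059653 (- strand): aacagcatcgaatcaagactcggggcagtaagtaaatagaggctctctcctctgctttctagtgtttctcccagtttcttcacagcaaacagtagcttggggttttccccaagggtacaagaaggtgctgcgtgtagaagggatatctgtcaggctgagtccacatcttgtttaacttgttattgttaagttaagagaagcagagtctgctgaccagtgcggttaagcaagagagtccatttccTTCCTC

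Of 20 lymphocyte genes, 9 were higher in bone and 1 in muscle (11.3% and 8.2% of all probes were), with a median of 0.78 that was 1.58 with the processed signals and 1.71 with the Cy3 level alone. Cxcr4, the receptor that holds blood precursors in marrow, read 1.67 and 0.58 in bone and -1.71 and -1.58 in muscle, a difference of 2.77 ± 0.37 (adjusted p = 1.399e-05, limma). Ptprc, the common leukocyte antigen CD45, read -0.06 and -0.04 in bone and -2.53 and -2.81 in muscle, a difference of 2.62 ± 0.39. For both genes the organs stood apart without overlap. The B cell genes Fcrla (1.41, and not well above background on either muscle array) and Fcmr (Faim3, 1.63) were called too, but not without bone 1 (0.78 and 0.98) or muscle 2 (1.06 and 1.29). The T cell genes Icos and Ctla4 lay between -0.01 and 0.19 on all 4 arrays, where at most 1 array was well above background. Cd28, a costimulatory receptor of T cells, went the other way, with -0.79 and -0.15 in bone and 0.77 and 1.38 in muscle.

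Genes of the cells that build and remove bone were called in part. Of 10 genes of osteoblasts and skeletal mesenchyme, 4 were higher in bone (11.3% of all probes were) and 0 in muscle, and the median of 0.18 had no settled sign, since it was 0.77 without bone 1, -0.16 without bone 2, -0.09 with the processed signals, -0.19 with the Cy3 level alone and -0.87 with slide as a fixed block. Tnn, tenascin W of the bone surface, read 2.45 and 1.87 in bone and -0.28 and -0.38 in muscle, a log2 difference of 2.49 ± 0.25, and was not well above background in muscle. Ptprv, a phosphatase of osteoblasts, read -1.48 and -1.09 against -3.37 and -3.21, a difference of 2.01 ± 0.49 (adjusted p = 0.004043, limma), and the sulfatase Sulf1 (1.27) was called too. Sulf1 lost its call without bone 2 (0.43), muscle 1 (1.37) or muscle 2 (1.16). Bone was the highest organ for none of the 10. Igfbp5, an insulin-like growth factor binding protein, read 4.77 and 5.04 in bone and 5.64 and 5.23 in muscle, and Prrx1, a homeobox gene of limb mesenchyme, read -1.09 and -0.27 against -1.06 and -0.14. Of 4 osteoclast genes, 2 were higher in bone, against the same 11.3%. Acp5, the tartrate-resistant acid phosphatase, read 3.76 and 3.41 in bone and 0.35 and -0.71 in muscle, a difference of 3.76 ± 0.28 (adjusted p = 1.506e-08, limma), and the receptor Trem2 differed by 2.21. Tnfrsf11a, the receptor RANK, was not well above background on any of the 4 arrays. Clcn7 averaged 0.43 in bone and 0.74 in muscle and was not called. Bone was the highest organ for none of these 4 genes. Acp5 stood at 4.06 in liver against 3.58 in bone, and Trem2 at 0.05 in brain cortex against -0.53.

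Matrix and cartilage genes separated the bone arrays from each other. Of 10 genes of fibrillar matrix and fibroblasts, 5 were higher in bone and 1 in muscle, beside 11.3% and 8.2% of all probes (median 1.21), and 9 of the 10 were higher on bone 2 than on bone 1. The median was 1.98 without bone 1 and 0.75 without bone 2, and that of the 6 cartilage and tendon genes, of which 2 were higher in bone, was 1.27 and -0.01, beside 0.80 with all arrays and -0.35 with slide as a fixed block. Col3a1, a fibrillar collagen, read -0.62 and 2.18 in bone and -2.17 and -2.09 in muscle. Fn1, fibronectin, read -3.21 and 0.61 in bone and -4.20 and -4.10 in muscle. In both, bone 1 lay between muscle and bone 2. Prg4, lubricin of the joint surface, read 3.87 and 8.61 in bone and 4.43 and 3.23 in muscle, so that bone 1 lay within the range of muscle, and it was not called (2.41 ± 0.91, adjusted p = 0.0524, limma). Acan, the cartilage proteoglycan aggrecan, read -0.14 and 2.67 against -0.45 and -0.36, where neither muscle array was well above background. Its call was lost without bone 2 (0.27), muscle 1 (1.63) or muscle 2 (1.71), and that of Fmod, a collagen-binding proteoglycan of tendon, without bone 2 (1.67) or muscle 2 (0.37). Fn1 was not called without bone 2 (0.94), and Adamts2, a procollagen protease (1.31), kept its call without bone 1 (1.76) but not without bone 2 (0.86), muscle 1 (1.31) or muscle 2 (1.31). Olfml2b, an extracellular matrix protein, had bone arrays close together, with 1.70 and 1.94 in bone and -0.36 and -0.63 in muscle. Dpt, the matrix protein dermatopontin, was higher in muscle (3.04 and 3.35) than in bone (0.23 and 2.95), a call that was lost without bone 1 (-0.24), muscle 1 (-1.76) or muscle 2 (-1.45).

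The same contrast appeared in genes outside the lists, chosen here after their values were seen. Snorc (3110079O15Rik) and Ucma (1110017I16Rik), which are cartilage proteins, read -0.69 and -0.26 on bone 1 and 4.91 and 3.01 on bone 2, against -0.61 and -0.43, and -0.58 and -0.64, in muscle. On the other side Serpinb2, a serine protease inhibitor, read 3.70 on bone 1 and 0.49 on bone 2, with -1.22 and -1.10 in muscle. Serpinb2 and Ucma were not well above background on either muscle array. Sox17, a transcription factor of endothelium, was near muscle on bone 1 (3.62) and low on bone 2 (0.73), with 4.21 and 4.04 in muscle. Of the 2372 probes higher in bone, 764 had bone arrays more than 1 apart, and of the 1724 higher in muscle 198 had, beside 11.3% of all probes. Of the 2372 probes 1694 were higher on bone 1, and of the 1724 probes 1236 were. The share of all probes higher on bone 1 was not counted, so nothing particular to these probes or to the lists above is read from such counts.

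**Figure D2:**
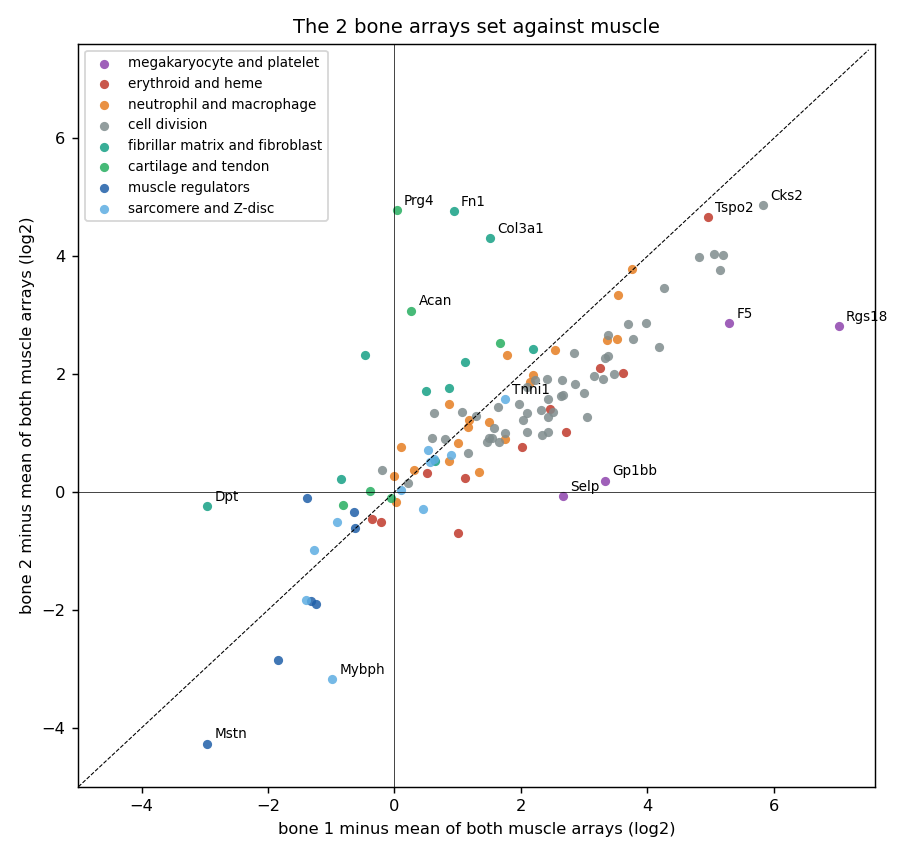
Each point is a member of 1 of 8 gene lists, with bone 1 minus the muscle mean on the horizontal axis and bone 2 minus the same mean on the vertical axis, in log2. Points on the dashed line would be equal in both bone arrays. Platelet genes such as Rgs18 and Gp1bb fall below it, and matrix and joint genes such as Prg4, Fn1, Col3a1 and Acan lie above it.

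Some genes of the contractile apparatus were higher in muscle. Of 11 sarcomere and Z-disc genes, 0 were higher in bone and 3 in muscle (27.3%, beside 8.2% of all probes), with differences from -2.08 to 1.66 and a median of 0.08. The median was -0.68 under median centring, -0.99 with the Cy3 level alone, -0.38 with slide as a fixed block, 0.24 with the processed signals or the authors' table and 0.45 without bone 2. Actn3, the actinin of fast fibres, read 5.52 and 5.45 in bone and 4.87 and 4.92 in muscle. Ankrd23, an ankyrin repeat protein of the sarcomere, read 7.11 and 7.30 against 6.51 and 6.65, and Myl1, a fast myosin light chain, read 4.52 and 4.27 against 3.54 and 3.72. Bone ranked first of the 15 organs for 5 of the 11 members by these ratios. None of the 3 differences was called, and their direction turned with the scaling: with each array centred on its median they were -0.72, -0.35 and -0.29, and with the Cy3 level alone -0.58, -0.15 and -1.55. Des, the muscle intermediate filament desmin, read 3.19 and 3.12 against 3.17 and 3.02, but was lower in bone by the Cy3 level alone (-1.83, adjusted p = 0.0335, limma). Both bone arrays thus read Actn3 and Myl1, genes of fast muscle fibres, well above the reference, and the labels do not say whether muscle was attached to the bone.

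The muscle arrays disagreed about few genes. Tnni1, the troponin I of slow fibres, read 1.54 on muscle 1 and 4.86 on muscle 2, against 4.95 and 4.78 in bone. Fmod read 2.46 and -1.0 in muscle and 2.41 and 3.26 in bone. In Tnni1 muscle 2 was level with bone, and in Fmod muscle 1 was. The difference in Tnni1 was 0 without muscle 1 and 3.33 without muscle 2, where it was called.

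The muscle genes that were lower in bone lay mostly outside these filaments. Mstn, the secreted growth inhibitor myostatin, read 4.64 and 3.33 in bone and 7.23 and 7.98 in muscle, a difference of -3.62 ± 0.72 (adjusted p = 0.0007726, limma), or 12.3-fold. Jph1, the junctophilin that joins T-tubule and sarcoplasmic reticulum, read 2.54 and 1.20 against 4.74 and 4.76, a difference of -2.88 ± 0.33 (adjusted p = 2.607e-06, limma). Mettl21c (A530098C11Rik), a lysine methyltransferase of muscle, read 6.03 and 5.03 against 7.73 and 8.0, a difference of -2.34 ± 0.36. In all 3 genes both bone arrays were below both muscle arrays, with bone 2 the lower. That separation was part of the rule that named Mstn and Jph1, and 33.7% of all probes showed it. None of the 3 genes was absent from bone: all were well above background on both bone arrays, and bone ranked 2 or 3 of the 15 organs. The Mstn call depended on the signal used and on the block, since with slide as a fixed block it was -3.03 (adjusted p = 0.264, limma). With Agilent's background-subtracted processed signals its difference was -1.44 (adjusted p = 0.39, limma), with the authors' table -1.84 (0.175) and with the Cy3 level alone -2.54 (0.158), while Jph1 kept its call.

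Among regulators of muscle, 4 of 7 members were higher in muscle and 0 in bone (8.2% of all probes were higher in muscle), and the median was -1.57. All 7 differences were negative, also under the other scalings. Myog, the myogenin that drives muscle differentiation, read 0.75 and 0.22 in bone and 1.85 and 2.30 in muscle, and the nuclear receptor Rxrg read 5.46 and 4.81 against 6.65 and 6.76. Neither gene overlapped between the organs. Without bone 2 the calls of Myog (-1.32) and Rxrg (-1.24) were lost, and that of Myog also without muscle 2 (-1.36). With the processed signals none of the 4 was called, at -1.44 for Mstn, -0.24 for Mettl21c, -1.68 for Myog and -0.93 for Rxrg, although the list's median was -1.44. Fgf6, a growth factor of muscle, read -0.02 and -0.01 against 0.68 and 0.51, and was not called at a difference of -0.62.

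Of 8 tested genes of muscle excitation and the neuromuscular junction, 4 were higher in muscle and 0 in bone, beside 8.2% of all probes higher in muscle, with a median of -0.89 (-1.45 without bone 1 and -1.81 with the Cy3 level alone), and Chrng and Fer1l5 were below the filter. Klhl30 (-1.92), Dusp27, a phosphatase-like protein of muscle (-1.38), and Asb18 (-1.17) joined Jph1, and Asb18 was not called without bone 2 (-0.96). With the processed signals only 1 of the 4 calls, that of Jph1, was made. Cacna1s, the voltage sensor of the T-tubule, read 4.40 and 3.96 in bone and 4.37 and 4.41 in muscle. Of the sarcomere genes the 3 that were called higher in muscle were Mybph, a myosin-binding protein (-2.08), the kinase Speg (-1.62) and Obsl1, an obscurin-like protein (-1.13). Mybph read 4.07 on bone 1 and 1.88 on bone 2, and 4.96 and 5.15 in muscle. Without bone 2 its difference was -0.99 (adjusted p = 0.228, limma), and its call was also lost without muscle 2 (-1.99), as was that of Obsl1 without bone 1 (-0.99) or muscle 1 (-0.85). With the processed signals 0 of the 11 genes were called.

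Muscle promoters are shown for 3 of these genes. Of 10 sarcomere genes with a window, 6 held the E-box CAGCTG (60%), which reads the same on both strands and is bound by myogenic factors, and so did 4 of 5 genes of excitation and junction (80%), against 12.8% of all genes. The MEF2 motif, in either strand, was found in 2 of the 10 and 2 of the 5 (20% and 40%), against 3.01%. Other muscle lists held fewer, with the E-box in 0 of 4 muscle regulators and 1 of 5 energy genes and the MEF2 motif in 0 of either. Members with the E-box include Cacna1s, Des and Myl1, which were not called, as well as Mybph, Obsl1, Dusp27 and Asb18, which were higher in muscle. Capitals mark both motifs in Dusp27 and Asb18, and the E-box in Mybph.
Dusp27, chr1:166127899-166128148 (- strand): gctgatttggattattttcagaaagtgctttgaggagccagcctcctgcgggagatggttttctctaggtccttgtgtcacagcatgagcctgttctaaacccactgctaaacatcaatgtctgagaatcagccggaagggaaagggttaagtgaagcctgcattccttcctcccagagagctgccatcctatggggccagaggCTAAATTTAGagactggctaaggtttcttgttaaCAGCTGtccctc
Asb18, chr1:90014667-90014916 (- strand): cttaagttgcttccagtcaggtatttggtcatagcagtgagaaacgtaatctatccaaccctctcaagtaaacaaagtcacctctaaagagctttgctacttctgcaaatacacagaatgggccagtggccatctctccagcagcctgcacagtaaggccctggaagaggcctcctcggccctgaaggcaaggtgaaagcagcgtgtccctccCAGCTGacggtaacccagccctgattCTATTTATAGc
Mybph, chr1:134193198-134193447 (+ strand): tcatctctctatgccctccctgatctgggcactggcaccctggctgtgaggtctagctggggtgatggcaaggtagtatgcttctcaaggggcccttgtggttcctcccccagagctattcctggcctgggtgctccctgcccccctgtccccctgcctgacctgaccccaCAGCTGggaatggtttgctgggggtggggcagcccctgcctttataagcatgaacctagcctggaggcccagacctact

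Fuel genes of muscle were divided. Of 6 genes of energy metabolism, 4 were higher in muscle (8.2% of all probes were) and 0 in bone, with a median of -1.19 that was -1.74 under median centring, -0.86 with the processed signals and -0.59 with slide as a fixed block. Among the called were Prkag3, the muscle subunit of AMP-activated kinase (-1.59), Acyp2, an acylphosphatase (-1.57), and Acsl1, an acyl-CoA synthetase (-1.18). Prkag3 read 2.48 and 1.6 in bone and 3.58 and 3.69 in muscle, and fell short of a call with the processed signals (-0.54). Acsl1 lost its call without bone 2 (-0.91) or muscle 2 (-0.93), and Acyp2 without muscle 2 (-1.45). Of 8 genes of fatty acid oxidation, 1 was higher in muscle (12.5%, beside 8.2% of all probes), Acads (-1.02), not so without bone 2 (-0.58) or muscle 2 (-0.87). The list's median of -0.41 was -1.19 under median centring, -0.89 with the Cy3 level alone and -0.24 without muscle 2. Of 54 members of the respiratory chain and ATP synthase, 2 were higher in bone (3.7%, beside 11.3% of all probes) and 1 in muscle (1.85%, beside 8.2%), with a median of -0.02. Median centring changed that: 28 of the 54 were then higher in muscle and 0 in bone, with a median of -1.11. Under that scaling 2570 of all 21019 probes were higher in muscle and 1570 in bone. Cox8a, the isoform of cytochrome oxidase subunit 8 found in most tissues, read -0.85 and -1.16 in bone and -2.43 and -2.32 in muscle, a difference of 1.37 that was 0.16 under median centring. Uqcrh, of complex III, differed by 1.08, and by -0.45 under median centring, and Uqcrfs1, the Rieske iron-sulfur protein, was higher in muscle (-1.24).

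Ribosomal protein genes had positive differences in bone with loess. All 25 had a positive difference, 7 were higher in bone (28%, beside 11.3% of all probes) and 0 in muscle, and the median was 0.80. Rpl36a read -1.88 and -1.84 in bone and -4.30 and -4.09 in muscle, a difference of 2.34 ± 0.38, and Rpl41 differed by 2.09. Muscle was the lowest of the 15 organs for both. Under median centring 15 of the 25 differences were negative and 0 were called, with a median of -0.25, so that the direction of this list depended on the scaling.

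Of 3 genes of Schwann cells, 2 were higher in muscle (8.2% of all probes were) and 0 in bone. Gpr37l1, a receptor of glia, differed by -1.24, a call that was lost without any single one of the 4 arrays (-1.48 to -0.99), and Cdh19, a cadherin of Schwann cells, was not above background on any of the 4 arrays. Gdap1, a mitochondrial protein of nerve, read 3.04 and 2.09 in bone and 5.17 and 5.17 in muscle, and only cortex (5.26) and cerebellum (5.32) exceeded muscle. In Gdap1 bone was below muscle on every array, which was part of the rule that named it. Its difference of -2.60 was -0.67 with the processed signals (adjusted p = 0.455, limma). Others among the 12 genes with the largest differences on the side of muscle were Insyn1 (6030419C18Rik), an inhibitory synapse factor, C2cd2 (5830404H04Rik), and 6 more named by RIKEN clones, between -3.18 and -2.37. With slide as a fixed block Gdap1 (-0.55, adjusted p = 0.489, limma), C2cd2 (-1.19), 2310040G07Rik (-1.69) and Atcayos (2310050B05Rik, -2.09) were not called. In addition, 2310015D24Rik, Atcayos and 2310040G07Rik were not called with the processed signals (-0.88, -0.96 and 0.36) or the authors' table (-0.98, -0.96 and -0.02).

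Lists of other tissues near bone or muscle held few members. Of 6 genes of endothelium and pericytes, 1 was higher in bone (Cavin2, Sdpr on the array, 1.65, not called without bone 1, muscle 1 or muscle 2) and 0 in muscle, and Rgs5, a pericyte gene, read 7.27 and 6.24 in bone and 6.63 and 6.97 in muscle. Of 5 fat genes, 2 were higher in bone, the ATP citrate lyase Acly (1.43) and Fcor (2400009B08Rik, 1.01, not called without bone 2, muscle 1 or muscle 2), and of 5 keratinocyte genes 0 were called, where 11.3% of all probes were higher in bone and 8.2% in muscle.

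**Figure D3:**
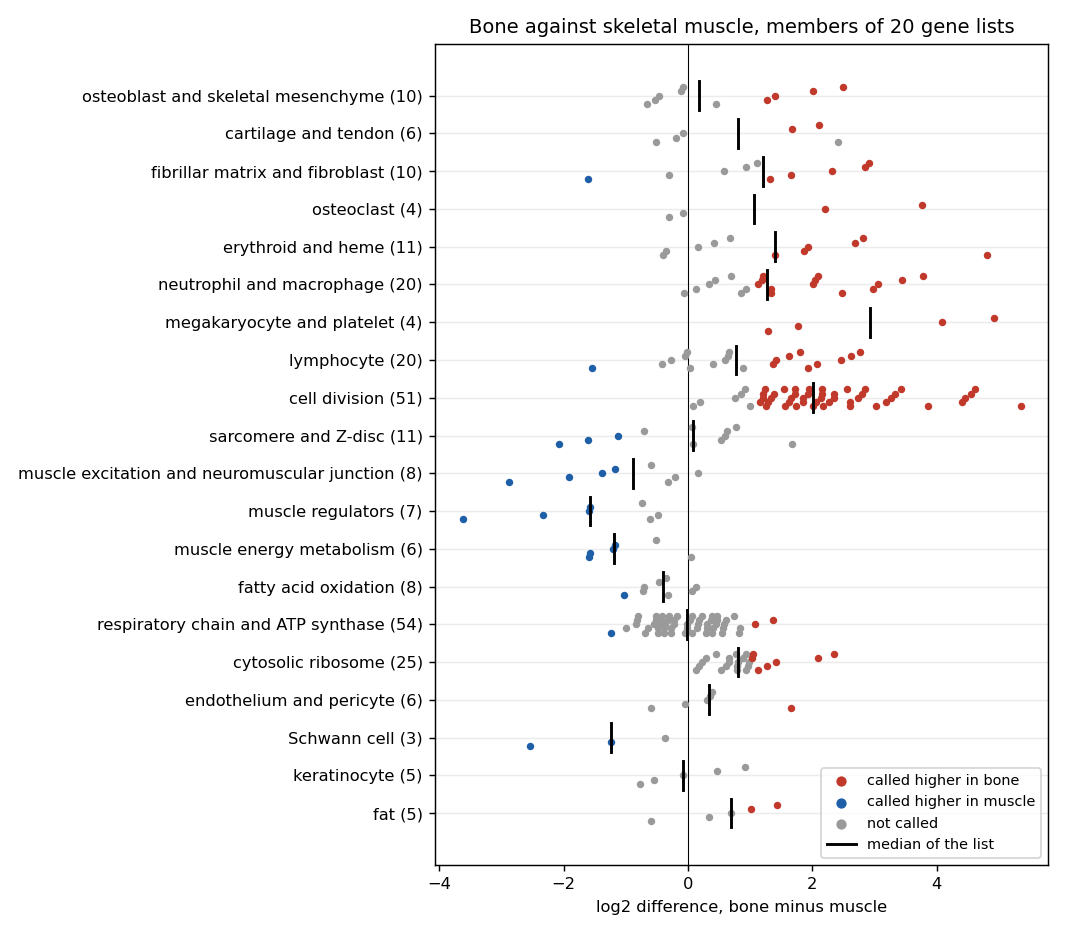
Each point is a gene and its horizontal position is the log2 difference of bone minus muscle, for 20 gene lists with the number of genes tested in parentheses, and vertical bars mark each list's median. Division genes (median 2.00) and platelet genes (2.92, and 1.5 without bone 1) lie to the right, muscle regulators (-1.57) lie to the left, and sarcomere genes (0.08) and the respiratory chain (-0.02) are centred near 0, although under median centring these 2 medians are -0.68 and -1.11.

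Detection differed between the organs as well. Of the probes tested, 871 (4.14%) were well above background on both bone arrays and on no muscle array, of which 335 were called higher in bone. The reverse held for 120 (0.571%), of which 11 were called higher in muscle. The lowest Cy3 signal well above background was 6.06 on bone 1 and 4.57 on bone 2 in log2, against 6.41 and 6.53 on the muscle arrays, and the part of this difference in the counts was not tested. Some probes of the first kind did not read higher in bone, such as 2010003K11Rik (-0.20) and Adra1d (-0.12). Among those with a symbol were 122 of the first kind, such as Mcemp1 (1810033B17Rik), a membrane protein of myeloid cells, with a log2 difference of 3.61, and Rassf5, a Ras effector of lymphocytes, with 2.08. Of the 20 with a symbol of the second kind only Col19a1, a fibril-associated collagen (at least 2.69-fold higher in muscle in the Cy3 level), the clone A930024N18 (at least 2.14-fold) and Slco5a1, an organic anion transporter (at least 1.98-fold), were called. These few were named after their values were seen.

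Across the 15 organs the muscle genes were not read in muscle and bone alone. Mstn was highest in muscle (7.6 ± 0.53, SD, n = 2), then skin (4.77 ± 2.61), bone (3.99 ± 0.92) and eyes (2.44 ± 0.08), where the spread of skin overlapped that of muscle, bone and eyes. Myog followed the same order, with muscle at 2.07 ± 0.32, skin at 1.78 ± 1.64, bone at 0.49 ± 0.38 and eyes at 0.22 ± 0.06. For Myog the spread of skin again overlapped that of muscle, bone and eyes, and bone and eyes overlapped. Jph1 stood at 4.75 ± 0.02 in muscle, 1.87 ± 0.94 in bone and 1.76 ± 0.85 in skin, with heart at 0.92 ± 0.03. Muscle was the highest organ for 6 of the 7 regulators and 6 of the 8 excitation genes, and bone for 7 of the 11 red cell genes and 8 of the 20 neutrophil and macrophage genes.

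**Figure D4:**
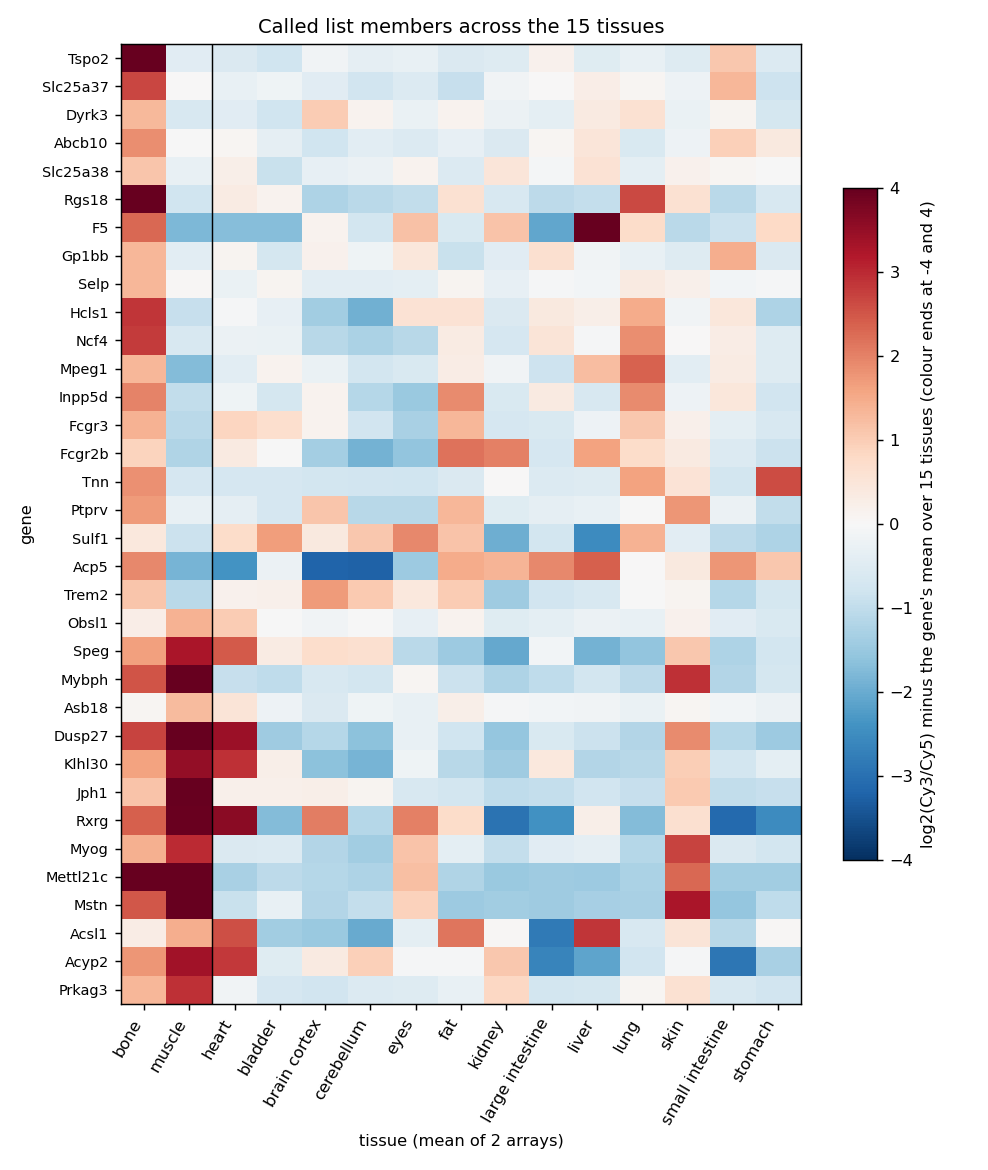
Rows are 34 called members of 9 lists, at most 6 of each, and columns the 15 organs, with bone, muscle and heart first, and colour gives the mean log2(Cy3/Cy5) of 2 arrays minus the gene's mean over all organs, cut off at 4 in either direction. Of the red cell, platelet and phagocyte genes at the top, all but F5, Gp1bb, Mpeg1 and Fcgr2b are strongest in bone, with Rgs18 also high in lung (3.94 against 5.43), and the muscle genes at the bottom, except Acsl1, are strongest in muscle with weaker colour in bone and, for some, in skin or heart.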

How the data were processed

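RNA of 15 organs, 2 arrays each, was hybridised by the authors in 2 colours, with the organ in Cy3 and a common reference in Cy5 and no dye swap, and scanned with Agilent Feature Extraction. The deposited spot files hold intensity values (for each channel the spot's mean signal and its local background), the software's background-subtracted and dye-normalized processed signals, and further columns, scored here as other, with flags for outliers and for signal well above background. The authors' value table holds log10 values, which follow the processed Cy3 signal adjusted for the reference. It served for the choice of probes and as an alternative.

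Mean signals were background-corrected by normexp (offset 50) and normalized by loess within each array in R 4.3.3 with limma 3.58.1, control spots carrying no weight in the loess. Values are log2(Cy3/Cy5), with outlier spots set to missing (185 values at 167 probes, 29 of these probes in the 4 arrays). Of 25030 probes in the authors' table, 21019 (84%) were tested, those that both replicates of some organ read well above background in Cy3. The model had 1 coefficient per organ over all 30 arrays, and was followed by eBayes and Benjamini-Hochberg adjustment. Calls needed an adjusted p under 0.05 and a log2 difference of at least 1 in size. The procedure was tested on simulated data. A gene not well above background on either array of an organ has only a bound there, given on the Cy3 level where it lay below the fold of the log ratios: the brighter organ's mean normalized Cy3 level against the higher of the dim probe's own level and the lowest level well above background, which is open to dye bias without swapped dyes.

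Symbols came from the probe lists that accompany the study, and each probe was counted on its own. Of 5047 distinct symbols, 3166 were current in RefSeq, 1534 were synonyms of a current one and 347 were neither. The 12 genes with the largest called difference in each direction, without overlap between the organs, were named, together with the members of 20 gene lists, and a few genes that these rules name are not reported here. The members and lists were chosen with earlier results of these data known. By the study's methods the replications of an organ came from separate animals, but the series description names 1 replication for bone, so for bone the spread between arrays may be technical. The number of arrays limits the precision. Promoter windows are those of RefSeq (GRCm38.p6), first listed start. The alternatives were other scalings, signals, filters, thresholds and blocks, and leaving out each array.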

Additional observations from a re-analysis of the deposited data

Results flagged for a closer look

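The array holds probes that the authors' value table leaves out, and these gave signal too. Of 13618 such probes past the same filter, 1037 were higher in bone (7.61%) and 1111 were higher in muscle (8.16%) by limma with the same thresholds. They are not named here, and the cause of their absence from the table was not tested.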

How the results depend on the processing

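The number of probes higher in bone was 2372 and in muscle 1724, and ran from 1950 to 2529 and from 1411 to 1893 when 1 array was left out. Median centring gave 1570 and 2570, a log2 threshold of 2 gave 907 and 204, and all probes of the array gave 3400 and 2831. The 4 arrays alone, with 2 residual degrees of freedom, gave 1675 and 1416. Slide as a fixed block, linked only through other organs and added after the data were seen, gave 4552 and 3041, and scan day gave 4068 and 2340. The cause of these shifts was not tested, apart from the stricter threshold and the larger number of probes. The Cy3 level alone moved the median of all probes to -0.23.

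The labels number the arrays 1 and 2, but the deviations of bone 1 and muscle 1 correlated at -0.106, and the numbers were not taken as pairs. With the replicate block 2388 and 1738 probes were called. Crossed numbers, added after the data were seen, gave 2388 and 1736.

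Median centring turned the difference of Ndufa13 to -1.24, Ndufa9 to -1.09, Ndufb9 to -1.34, Uqcrc2 to -1.17, Uqcrh to -0.45, Rps14 to -0.25, Rps16 to 0.00 and Rps3 to -0.34. Processed signals turned 2310040G07Rik to 0.36, the Cy3 level alone turned Des to -1.83, and the difference of Selp ran from -0.07 without bone 1 to 2.66 without bone 2. Slide as a fixed block turned 2400009B08Rik to -0.24, Acadm to 1.18, Acsl1 to 0.21, Adamts2 to -0.24, Atp5f1 to 3.17, Gpr97 to 2.12, Ndufs1 to 2.08 and Sprr1a to -1.85.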
